A study of Mus musculus with 6 samples.

Results

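The set described here holds 40 mouse genes of the cell division cycle. They are replication factors, mitotic cyclins and kinases, spindle checkpoint and cytokinesis genes, the G1 machinery, and an arrest group. The arrest group holds cycle inhibitors and genes of the p53 pathway, among them Mdm2, whose product degrades p53. The members came from a fixed list of gene symbols, and all 40 were found among the 33276 genes of the count table. RNA sequencing had been done on fibroadipogenic progenitors (FAPs) of mice labelled MCAO, a name for occlusion of the middle cerebral artery, an experimental stroke. Circulating FAPs came from peripheral blood (3 libraries) and resident FAPs from muscle (3 libraries). All mice of both groups carry the MCAO label, so both groups share the occlusion, and animals without it were not analysed here. The background strain, age and sex of the mice, the time after occlusion, the way the cells were isolated and the number of animals behind a library are not given in the sources used here. P-values therefore measure the spread between these libraries, which may be technical.

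FAPs are mesenchymal cells of skeletal muscle that support repair and can become fat or scar-forming cells. They are largely out of the cycle in resting muscle and divide after injury. A cell enters the cycle when D-type cyclins with Cdk4 or Cdk6, and then E-type cyclins with Cdk2, phosphorylate the retinoblastoma protein and release E2F factors, which switch on replication genes. A later wave of cyclin B, Cdk1 and mitotic kinases is held down in resting cells by the DREAM complex, which binds the CHR element of their promoters. The inhibitors of the Cdkn1 and Cdkn2 families and the p53 pathway stop this sequence.

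The promoters of a few members are shown first, because replication and mitosis genes held the letters known for E2F and DREAM complexes at different shares. The sequences are RefSeq's on GRCm38.p6 (the counts were made on GRCm39), each the 250 bases before the annotated start, 5′ to 3′ on the gene's strand. Capitals mark matches on either strand to the E2F element (TTTCCCGC, TTTCGCGC, TTTGCCGC or TTTGGCGC), the CHR element (TTTGAA or TTCGAA) or the CCAAT box (CCAAT). Cdk2 (chr10:128705052-128705301, minus strand) and Mcm6 (chr1:128359706-128359955, minus strand) act at the G1/S transition and in replication and are shown for their E2F letters. Rrm2 (chr12:24708004-24708253, plus strand), a replication gene with a larger fold change than Mcm6, is shown because it holds none. Cdk1 (chr10:69352913-69353162, minus strand) and Ccnb2 (chr9:70421555-70421804, minus strand) encode the mitotic kinase and one of its cyclins.
Cdk2: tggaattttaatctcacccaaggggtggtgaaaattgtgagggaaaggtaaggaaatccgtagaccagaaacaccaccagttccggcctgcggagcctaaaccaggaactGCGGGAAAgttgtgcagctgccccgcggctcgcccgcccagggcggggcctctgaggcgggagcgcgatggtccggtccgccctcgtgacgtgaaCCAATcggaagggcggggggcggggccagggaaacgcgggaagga
Mcm6: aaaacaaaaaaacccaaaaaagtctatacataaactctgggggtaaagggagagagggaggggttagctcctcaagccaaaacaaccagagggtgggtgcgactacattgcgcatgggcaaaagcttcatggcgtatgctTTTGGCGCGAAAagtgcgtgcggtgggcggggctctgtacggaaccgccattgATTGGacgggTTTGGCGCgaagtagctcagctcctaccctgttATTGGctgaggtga
Rrm2: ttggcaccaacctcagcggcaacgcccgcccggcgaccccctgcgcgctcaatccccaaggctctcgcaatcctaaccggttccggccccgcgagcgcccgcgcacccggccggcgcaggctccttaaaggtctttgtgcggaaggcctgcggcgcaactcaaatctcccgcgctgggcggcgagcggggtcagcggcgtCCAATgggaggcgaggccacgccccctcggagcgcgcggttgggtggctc
Cdk1: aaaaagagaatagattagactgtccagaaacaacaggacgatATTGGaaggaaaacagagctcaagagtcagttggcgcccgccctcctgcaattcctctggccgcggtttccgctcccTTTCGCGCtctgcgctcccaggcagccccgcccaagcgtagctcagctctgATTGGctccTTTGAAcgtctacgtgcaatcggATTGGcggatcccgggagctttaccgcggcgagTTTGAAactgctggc
Ccnb2: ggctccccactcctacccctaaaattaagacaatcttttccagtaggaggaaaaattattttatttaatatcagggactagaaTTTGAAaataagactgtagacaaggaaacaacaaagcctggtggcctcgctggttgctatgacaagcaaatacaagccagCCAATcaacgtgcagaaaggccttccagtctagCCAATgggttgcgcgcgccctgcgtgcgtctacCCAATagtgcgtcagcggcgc
The Cdk2 and Mcm6 windows hold E2F and CCAAT letters and no CHR letters, with overlapping E2F matches in the longest capital run of Mcm6. The Rrm2 window holds a CCAAT box and neither E2F nor CHR letters. Both mitotic windows hold CHR letters beside CCAAT boxes, and Cdk1 has an E2F match as well. Of the 40 members 33 had an entry, searched over these 250 bases and the 50 after the start. E2F letters were in 4 of 8 replication members and in 0 of 6 mitosis members, beside 2.6% of all 27025 genes with an entry. CHR letters were in 5 of 6 mitosis members and 4 of 5 S to M phase members, beside 21.7% of all genes. CCAAT letters were in 25 of 33 members, beside 41.1% of all genes. A match is a run of letters and not a measured binding site.

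The libraries differed in ways that touch these genes. Total counts ranged from 5522193 to 13813329 in circulating and from 17532558 to 23424039 in muscle FAPs, and 18S ribosomal RNA took 42.9% to 60.1% of them in circulating against 27.8% to 32.3% in muscle libraries. Sensory receptor genes (vomeronasal, taste and trace amine), which are silent outside sensory tissue, gave a background level in reads per kilobase of exon, scaled to the library total without 18S (in units of 1e+06 reads). Its median was 0.824, 1.27 and 0.913 in circulating replicates 1, 2 and 3 and 0.337, 0.440 and 0.277 in muscle replicates 1, 2 and 3. Every circulating library thus had a higher background than every muscle library. FAP markers were abundant in both groups. Their 10 genes summed to 10768 to 15403 CPM (counts scaled to 1e+06 of the library) in circulating and 24197 to 30678 CPM in muscle libraries. Pdgfra, Pdgfrb, Dcn, Lum, Col1a1 and Col3a1, 6 of the 10, were lower in every circulating library, beside 11.4% of all genes tested. Dpp4 was higher in every circulating library (means of 142 and 29.7 CPM), beside 16.2% of all genes tested. Pi16 had means of 823 and 297 CPM and overlapped, as did Ly6a and Cd34. The summed level of 12 leukocyte markers was 102 to 126 CPM in circulating and 20.6 to 36.4 CPM in muscle libraries, and 4 of the 12, Ptprc, Ms4a1, Csf1r and S100a9, were higher in every circulating library, beside 16.2% of all genes tested. Ptprc and Ms4a1 stood above 95% of the silent genes in 0 of 6 libraries. The leukocyte marker Nkg7 was at 0 in circulating 1 and 3 and in muscle 3. The summed level of 5 pericyte and smooth muscle markers was 43.5 to 55.3 CPM in circulating and 64.8 to 125 CPM in muscle libraries. Of these, 2, Rgs5 and Cspg4, were lower in every circulating library, beside 11.4% of all genes tested. Acta2 and Myh11 went the other way, with positive log2 fold changes. Sums of the endothelial, erythroid, platelet, satellite cell and muscle fibre markers overlapped between the groups. The part of these markers and of the background in the results below was not tested. In bulk RNA, fewer cells of a type and less RNA per cell cannot be told apart.

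Most of the cell cycle genes lay near the background in circulating FAPs. In the circulating libraries 8 members stood above 95% of the silent genes in every library: Pcna, Top2a, Ccnd2, Cdk4, Cdkn1a, Cdkn1b, Ccng1 and Mdm2. In muscle FAPs 16 members did, these and Mcm3, Mcm4, Mcm6, Mki67, Ccnb2, Cdk2, E2f1 and Trp53. The share was 20% of members in circulating and 40% in muscle FAPs, beside 28.6% and 44.7% of all genes tested with a length. In no circulating library did 19 of the 40 members pass that level, and in no muscle library 8. Of all 18532 genes tested with a length, 7340 passed it in no circulating library and 5375 in no muscle library. The median member was at 2.09 times the background in circulating and 5.39 times in muscle FAPs, beside 2.35 and 4.64 times for all genes. This count over silent genes was added after the values were seen. Dividing by a background that was higher in every circulating library lowers all genes there against muscle, so an overlap gained or lost on that scale is not particular to a gene. A level near background does not show that a transcript was absent.

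**Figure D1:**
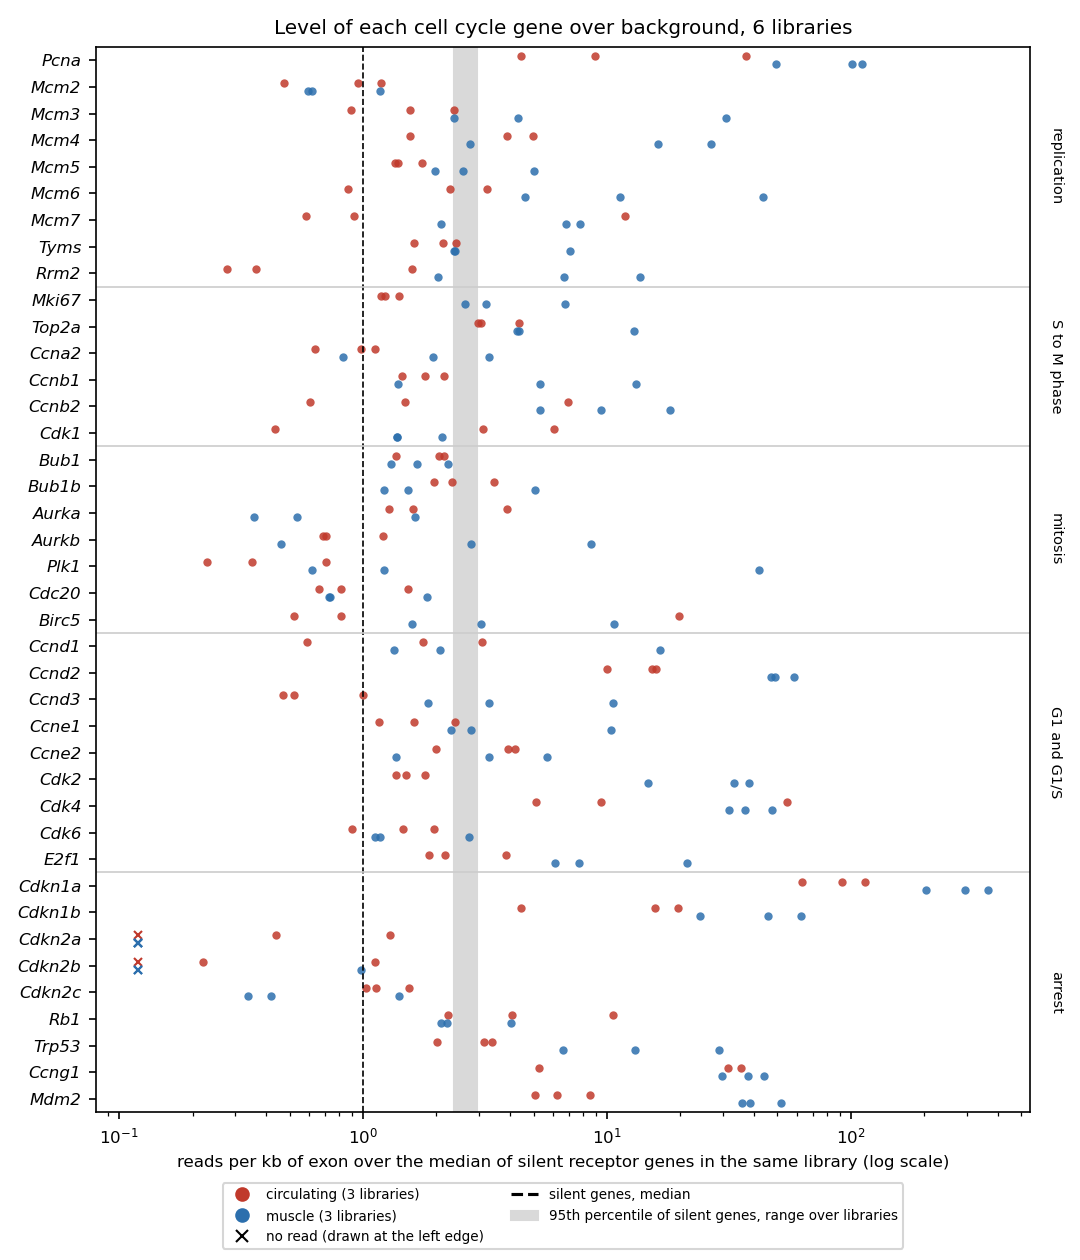
Level of each of the 40 members as reads per kilobase of exon over the median of silent receptor genes in the same library (log axis), with 1 point for each of 3 circulating and 3 muscle libraries. The dashed line is the silent-gene median and the grey band the range of their 95th percentile over libraries. Cdkn1a lies far to the right in all 6 libraries. Most replication and mitosis genes of the circulating libraries lie at or below the band.

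No member passed the threshold between circulating and muscle FAPs in edgeR's quasi-likelihood test (Benjamini-Hochberg adjusted p under 0.05 over 20248 genes). The threshold was passed by 0.104% of all genes for lower and 0.00494% for higher levels in circulating FAPs, 22 genes or 0.109% in all. The smallest adjusted p of the 37 members tested was 0.0909, for Cdk2. At an unadjusted p under 0.05, 6 members were lower and 2 higher, beside 9.64% and 9.71% of all genes. DESeq2 called 5 members lower (Mcm6, Rrm2, Ccnd3, Cdk2 and Mdm2) and 0 higher of the 32 members to which it gave an adjusted p, beside 10.3% and 1.15% of all genes with one. The levels did not overlap between the groups for 10 of the 40 members, 25%, beside 27.7% of all genes tested. Of these, 7 were lower in every circulating library, beside 11.4% of all genes, and 3 were higher, beside 16.2%. The share without overlap in either direction is near that of all genes. With scaling on abundant genes the split turned, to 3 lower and 8 higher of 11 members without overlap, beside 35.9% of all genes.

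The direction of the set turned on the scaling. The log2 fold change, circulating minus muscle, was negative for 23 of 37 members, beside 45.5% of all genes tested. The members' median was -0.54, beside 0.15 for all genes tested. The same 45.5% stands beside the counts of negative log2 fold changes by role and by list below. With scaling factors from abundant genes only, the members' median was 0.27 and that of all genes 0.89. The members' median lay below that of all genes under both scalings, while its sign changed. A change of scaling moves all genes by a similar amount, so the similar gap under both is not a separate result. Without muscle replicate 3 the members' median was -0.21, without muscle replicate 2 it was -0.34, and without circulating replicate 3 it was -0.91.

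**Figure D2:**
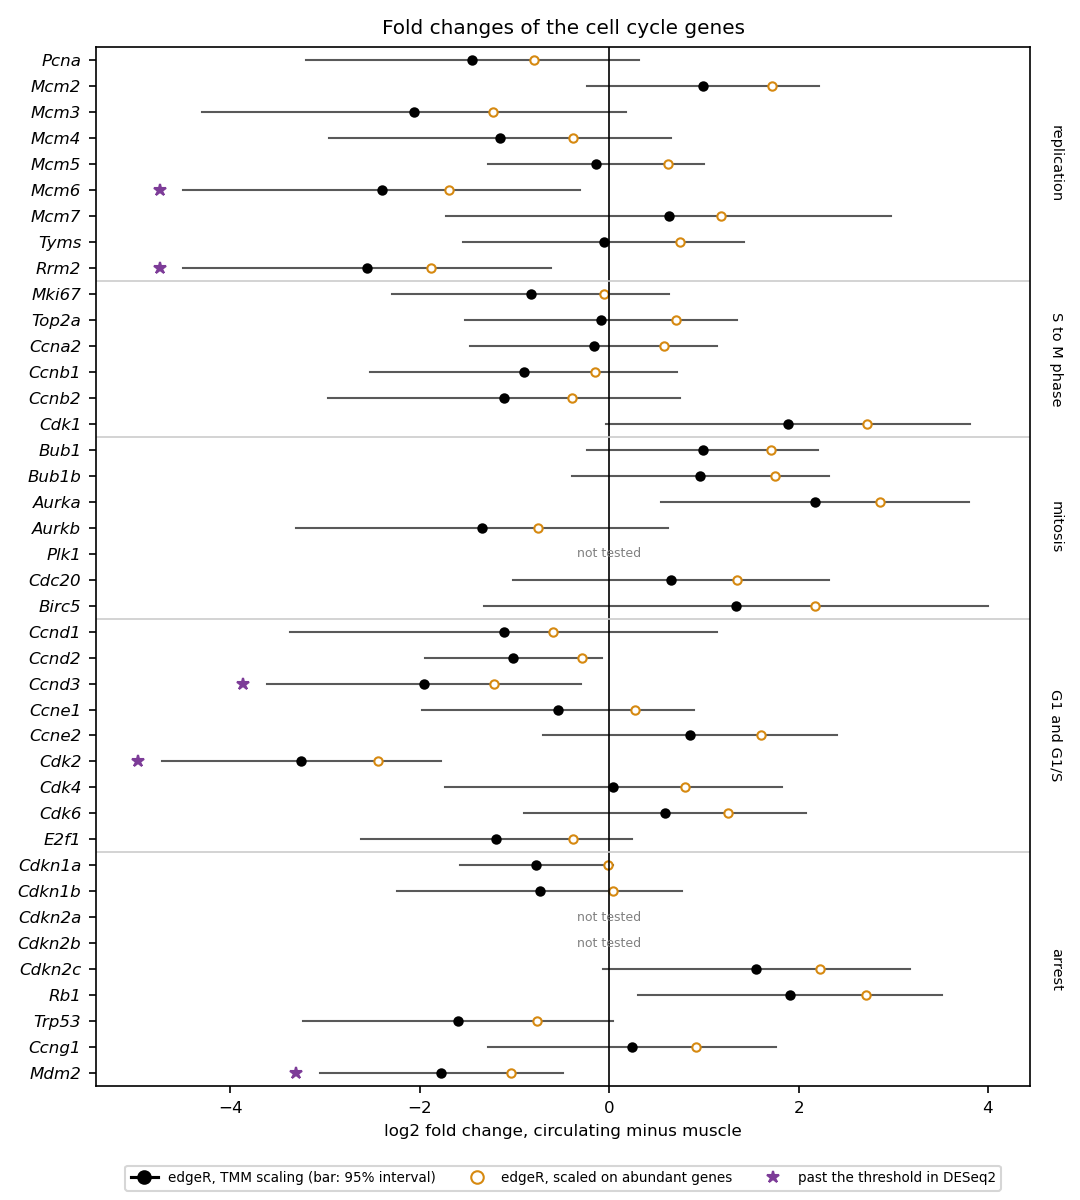
Log2 fold change, circulating minus muscle, of the 37 members tested, from edgeR with TMM scaling (filled points with 95% intervals) and with scaling on abundant genes (open points); stars mark the 5 members past the threshold in DESeq2. Cdk2 has an interval far below 0, most intervals cross 0, and the open points lie to the right of the filled ones.

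Among the 9 replication genes, 7 had negative log2 fold changes and none passed the edgeR threshold (median -1.15, or -0.39 with scaling on abundant genes). That median was -1.99 when circulating 1 was left out, -0.41 when muscle 1 was and -0.71 when muscle 3 was. At an unadjusted p under 0.05 in edgeR, 2 were lower and 0 higher, beside 9.64% and 9.71% of all genes. DESeq2 called the same number lower, Mcm6 and Rrm2, beside 10.3% of all genes with an adjusted p. Their summed level was 96.2, 30.3 and 35.9 CPM in circulating and 183, 83.4 and 104 CPM in muscle replicates 1 to 3. The groups overlapped, because circulating 1 exceeded muscle 2. The subunits of the MCM helicase, which unwinds DNA at the fork, were highest in different muscle libraries. Mcm6 had 7.15, 2.13 and 4.502 CPM in circulating and 53.7, 14.98 and 4.64 CPM in muscle replicates 1 to 3. Mcm3 had 2.77, 4.66 and 1.43 CPM in circulating and 30.4, 4.57 and 1.91 CPM in muscle libraries. Mcm4 had 8.46, 2.93 and 5.93 CPM in circulating and 15.4, 2.79 and 20.6 CPM in muscle libraries. Among the muscle libraries, muscle 1 was the highest and muscle 3 the lowest for Mcm2, Mcm3 and Mcm6, while muscle 3 was the highest for Mcm4 and Mcm5 and muscle 2 for Mcm7. The groups overlapped for each of these genes, Mcm2 to Mcm7. The log2 fold change of Mcm6 was -2.40 ± 0.95 (SE), with an adjusted p of 0.219 in edgeR and 0.0317 in DESeq2, and it was -1.13 without muscle replicate 1. That of Mcm3 was -2.06 ± 1.01 (adjusted p = 0.288 in edgeR), and -0.19 without muscle replicate 1. Mcm7 was at 24.96 CPM in circulating 1 and at 1.098 to 8.48 CPM in the other libraries. For Mcm7 the log2 fold change was 0.63 ± 1.06, and -1.99 without circulating replicate 1.

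Pcna, the clamp that holds DNA polymerase on its template, was the most abundant replication member per length in both groups. It had 42.1, 5.59 and 9.11 CPM in circulating and 63.9, 33.7 and 57.5 CPM in muscle replicates 1 to 3. Circulating 1 lay within the muscle range and the other circulating libraries below it. For Pcna the log2 fold change was -1.45 ± 0.79 (95% interval -3.20 to 0.31, adjusted p = 0.329 in edgeR), and -2.88 without circulating replicate 1. Rrm2, the small subunit of ribonucleotide reductase, had 0.365, 0.532 and 1.87 CPM in circulating and 1.49, 10.8 and 3.96 CPM in muscle replicates. Its highest circulating library lay above its lowest muscle library. For Rrm2 the log2 fold change was -2.56 ± 0.87, with an adjusted p of 0.191 in edgeR and 0.0356 in DESeq2, and it was -1.63 without muscle replicate 2. Tyms, the thymidylate synthase gene, overlapped between the groups (5.96 ± 1.58 CPM in circulating cells and 6.20 ± 4.54 CPM in muscle FAPs, SD, n = 3).

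**Figure D3:**
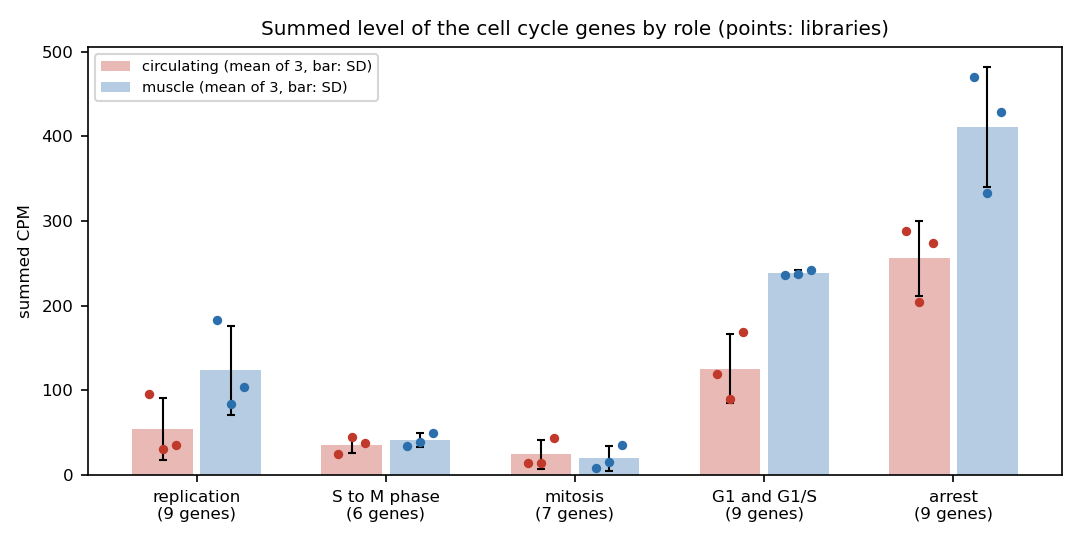
Summed CPM of the members of each role (bars: mean of 3 libraries; error bars: SD; points: libraries) in circulating and muscle FAPs. The arrest genes have the largest sums in both groups, 256 and 411 CPM, and the mitosis genes the smallest, 24.3 and 19.8 CPM.

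Growth-fraction markers and the S to M phase cyclins were low, and none of the 6 differed past the threshold in edgeR or DESeq2, or at an unadjusted p under 0.05. Of the 6 log2 fold changes, 5 were negative (median -0.50, or 0.27 with scaling on abundant genes and -0.035 without muscle replicate 3). Mki67, the gene of the Ki-67 antigen of dividing cells, had 5.84, 7.45 and 5.05 CPM in circulating and 17.9, 9.09 and 5.67 CPM in muscle replicates 1 to 3. Muscle 3 lay within the circulating range. Over the silent-gene background, Mki67 was at 1.22, 1.41 and 1.18 times in circulating and 6.71, 3.19 and 2.62 times in muscle libraries. For Mki67 the log2 fold change was -0.83 ± 0.66 (95% interval -2.30 to 0.64, adjusted p = 0.480 in edgeR), and -0.32 without muscle replicate 1. Top2a, the topoisomerase that untangles replicated chromosomes, had 12.6, 14.4 and 16.7 CPM in circulating and 10.4, 11.0 and 25.03 CPM in muscle replicates. All circulating libraries lay inside the muscle range. For Top2a the log2 fold change was -0.09 ± 0.65 (95% interval -1.53 to 1.35, adjusted p = 0.947 in edgeR), 0.71 with scaling on abundant genes, and 0.39 without muscle replicate 3.

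Cdk1, the kinase that drives mitosis, was the one gene of its role with a positive log2 fold change. It had 1.02, 15.7 and 6.48 CPM in circulating and 1.79, 2.94 and 1.47 CPM in muscle replicates 1 to 3. Circulating 2 and 3 lay above all muscle libraries and circulating 1 below them. For Cdk1 the log2 fold change was 1.89 ± 0.87 (95% interval -0.03 to 3.81, adjusted p = 0.264 in edgeR), and 0.78 without circulating replicate 2. The cyclins that bind Cdk1 did not share this pattern. Ccnb2 had 0.438, 1.198 and 4.502 CPM in circulating and 2.15, 7.87 and 3.13 CPM in muscle replicates, with a log2 fold change of -1.11 ± 0.84 (adjusted p = 0.460 in edgeR), -2.56 without circulating replicate 3 and -0.44 without muscle replicate 2. Ccnb1 had 3.54 ± 0.326 CPM in circulating cells and 6.63 ± 5.22 CPM in muscle FAPs (SD, n = 3), and a copy named Ccnb1-ps in the table can share its reads. Ccna2 had 1.80 ± 0.655 and 2.005 ± 1.014 CPM (SD, n = 3). Cdk1, whose promoter window holds CHR letters, and Ccnb2, whose window does too, thus had log2 fold changes of opposite sign.

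The 7 mitosis genes had the smallest mean summed CPM of any role. Of the 6 tested, 1 had a negative log2 fold change. The median was 0.97, or 1.73 with scaling on abundant genes and 0.23 without circulating replicate 3. None passed the threshold in edgeR or in DESeq2. At an unadjusted p under 0.05 in edgeR, 1 was higher and 0 lower, beside 9.71% and 9.64% of all genes. Of the 7, 0 passed 95% of the silent genes in every circulating or every muscle library, beside 28.6% and 44.7% of all genes. Over background the median mitosis gene was at 1.86 in circulating and 2.60 in muscle FAPs, beside 2.35 and 4.64 for all genes. Aurka, a kinase of the spindle poles, had 1.53, 2.13 and 4.17 CPM in circulating and 0.239, 1.17 and 0.293 CPM in muscle replicates 1 to 3. Every circulating library was above every muscle library. For Aurka the log2 fold change was 2.17 ± 0.73 (adjusted p = 0.189 in edgeR). Over the silent-gene background Aurka was at 1.28, 1.60 and 3.88 times in circulating and 0.357, 1.63 and 0.539 times in muscle FAPs. The spindle checkpoint genes Bub1 and Bub1b had log2 fold changes of 0.99 ± 0.55 and 0.96 ± 0.61 (adjusted p = 0.335 and 0.391 in edgeR), and their CPM overlapped. Cdc20, the activator of the anaphase-promoting complex, was below 1.3 CPM in all 6 libraries.

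Single libraries carried several mitosis genes. Plk1, the Polo-like kinase of mitotic entry, had 5, 2 and 6 reads in circulating and 6, 15 and 408 reads in muscle replicates 1 to 3. Muscle 3 stood alone at 19.9 CPM, and the gene did not pass the filter on low counts in edgeR with all 6 libraries. DESeq2 gave Plk1 a log2 fold change of -4.23 and no adjusted p. In edgeR without single libraries, where Plk1 passed the filter, it was -4.62 to -3.88 (adjusted p = 0.205 to 0.348). Birc5, the survivin of the chromosomal passenger complex, had 18, 7 and 259 reads in circulating and 46, 30 and 160 reads in muscle replicates. For Birc5 the log2 fold change was 1.34 ± 1.20 (95% interval -1.32 to 3.999), and -1.95 without circulating replicate 3. Aurkb, the kinase of the same complex, was at 7.21 CPM in muscle 2 and at 0.358 to 1.76 CPM in the other libraries, and its log2 fold change went from -1.34 ± 0.89 to 0.14 without muscle replicate 2. Replicate 3 was thus the high muscle library for Plk1, and replicate 2 for Aurkb, genes that act in the same phase.

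The G1 genes held Cdk2, which had the largest log2 fold change of the 37 members that edgeR tested with all libraries. Cdk2, the kinase of the G1/S transition, had 4.01, 5.86 and 3.95 CPM in circulating and 54.7, 25.9 and 51.0 CPM in muscle replicates 1 to 3. All muscle libraries lay above all circulating ones, and the muscle mean was 9.53 times the circulating mean. For Cdk2 the log2 fold change was -3.25 ± 0.66 (95% interval -4.72 to -1.78). The adjusted p was 0.0909 in edgeR, 7.48e-07 in DESeq2, 0.0421 in edgeR with no filter on low counts and 0.0801 with scaling on abundant genes. Leaving out single libraries gave log2 fold changes of -3.58 to -3.12, with adjusted p of 0.123 to 0.266 in edgeR. With a replicate block the adjusted p was 0.186 in edgeR. Per length, Cdk2 was at 1.36, 1.79 and 1.498 times the silent-gene background in circulating and at 33.3, 14.7 and 38.1 times in muscle libraries, so the circulating values are close to what silent genes reach.

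Cdk4, the D-cyclin kinase of early G1, did not share that pattern. It had 14.5, 8.78 and 75.2 CPM in circulating and 40.9, 29.1 and 25.7 CPM in muscle replicates 1 to 3. Circulating 3 was the highest of the 6 libraries and the other circulating libraries were the lowest. For Cdk4 the log2 fold change was 0.04 ± 0.80 (95% interval -1.74 to 1.82, adjusted p = 0.981 in edgeR), and -1.57 without circulating replicate 3. Cdk4 shares 641 bases of exon, 19.7% of its length, with Tspan31 on the opposite strand, and reads in that stretch cannot be told apart because no strand setting is given. Cdk6, the other D-cyclin kinase, had 9.33 ± 2.51 CPM in circulating cells and 6.18 ± 4.04 CPM in muscle FAPs (SD, n = 3).

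Ccnd2 was the most abundant of the 3 D-type cyclins per length in all 6 libraries. It had 68.3, 49.5 and 63.5 CPM in circulating and 117, 130 and 119 CPM in muscle replicates 1 to 3. The groups did not overlap and the muscle libraries lay close together. For Ccnd2 the log2 fold change was -1.01 ± 0.42 (95% interval -1.95 to -0.08), with an adjusted p of 0.231 in edgeR and 0.076 in DESeq2, and it was -0.29 with scaling on abundant genes. Ccnd3 had 4.16, 2.40 and 1.76 CPM in circulating and 4.30, 8.12 and 19.997 CPM in muscle replicates. The groups did not overlap, by a narrow margin between circulating 1 and muscle 1. For Ccnd3 the log2 fold change was -1.95 ± 0.75, with an adjusted p of 0.214 in edgeR and 0.0382 in DESeq2, and it was -1.20 without muscle replicate 3. Ccnd1, which responds to growth factors, was at 22.1 CPM in muscle 2 and at 1.46 to 6.86 CPM in the other libraries. For Ccnd1 the log2 fold change was -1.12 ± 1.02, and 1.02 without muscle replicate 2. Ccnd1 shares 23.4% of its exon length with LTO1 on the opposite strand. Smaller overlaps of this kind join Ccne2 with Ints8 (17.4% of its exon length), Ccna2 with Exosc9 (12.5%) and Mcm7 with Ap4m1 (7.3%).

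E2f1, the E2F factor that activates replication genes, had 2.77, 3.59 and 5.16 CPM in circulating and 6.39, 5.48 and 14.4 CPM in muscle replicates 1 to 3. All muscle libraries lay above the circulating ones in CPM, by a narrow margin between circulating 3 and muscle 2. For E2f1 the log2 fold change was -1.19 ± 0.65 (95% interval -2.62 to 0.24, adjusted p = 0.325 in edgeR), and -0.69 without muscle replicate 3. The E-type cyclins, partners of Cdk2, overlapped between the groups. Ccne1 had a log2 fold change of -0.54 ± 0.65 (0.27 with scaling on abundant genes) and Ccne2 of 0.85 ± 0.70. In all, 6 of the 9 G1 genes had negative log2 fold changes (median -1.01, or -0.29 with scaling on abundant genes). In CPM 4 of the 9, Ccnd2, Ccnd3, Cdk2 and E2f1, were lower in every circulating library, beside 11.4% of all genes. Per length, over the library total without 18S, Ccnd3 and E2f1 overlapped between the groups. On that scale E2f1 was at 1.53, 2.76 and 3.52 in circulating and 2.58, 2.70 and 5.90 in muscle replicates. Ccnd3 was at 0.824 in circulating 1 and 0.625 in muscle 1. With scaling on abundant genes 3 of all 40 members were lower without overlap. At an unadjusted p under 0.05 in edgeR, 3 of the 9 G1 genes were lower and 0 higher, beside 9.64% and 9.71% of all genes. The 9 genes summed to 119, 89.3 and 169 CPM in circulating and 236, 237 and 242 CPM in muscle replicates 1 to 3, without overlap. The leukocyte markers and the silent-gene background were higher in the same circulating libraries, and their part in this was not tested.

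**Figure D4:**
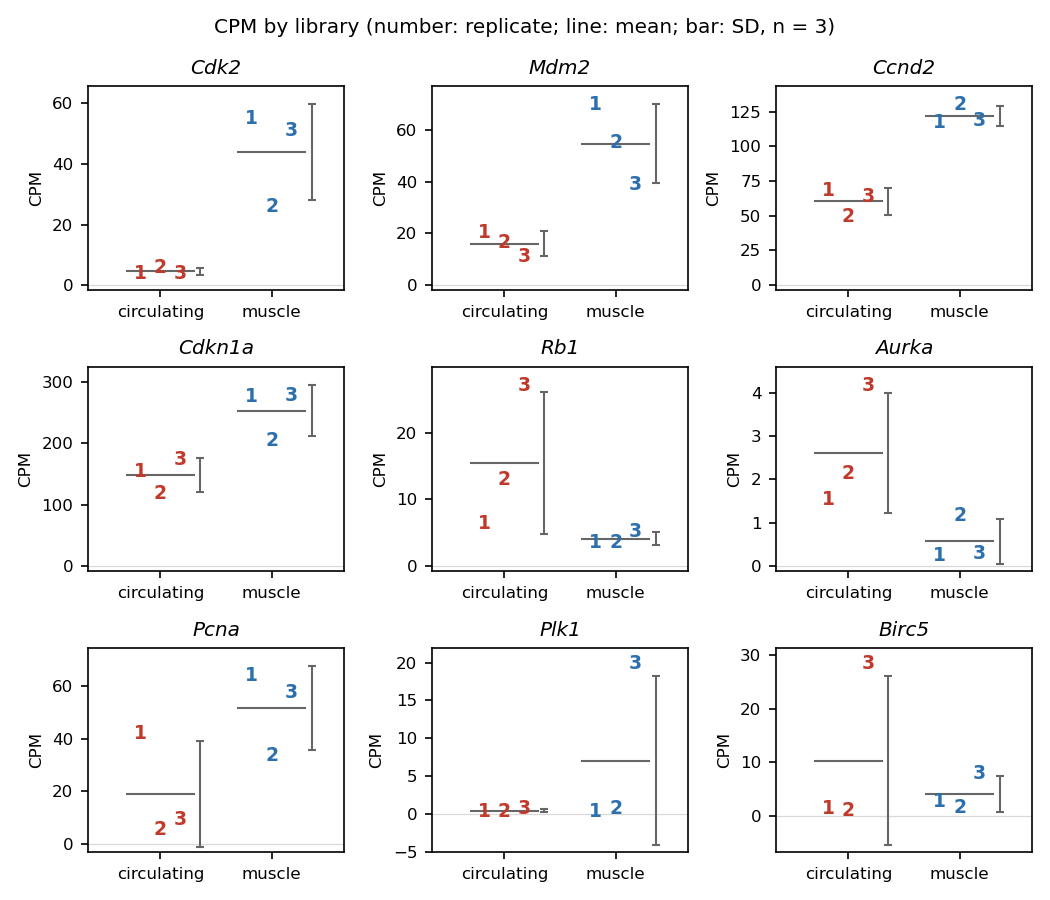
CPM by library (numbers: replicates; line: mean; bar: SD, n = 3) for selected members in circulating and muscle FAPs, each panel on its own linear axis. Muscle libraries lie above all circulating ones for Cdk2, Mdm2, Ccnd2 and Cdkn1a, and below them for Rb1 and Aurka. Plk1 and Birc5 show a single high library.

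The arrest genes were the most abundant role. Their sums were 288, 205 and 274 CPM in circulating and 470, 333 and 429 CPM in muscle replicates 1 to 3, without overlap. Of the 7 tested, 4 had negative log2 fold changes (median -0.73, or 0.04 with scaling on abundant genes and -0.41 without circulating replicate 3). In edgeR 0 passed, and 1 was lower and 1 higher at an unadjusted p under 0.05, beside 9.64% and 9.71% of all genes. DESeq2 called Mdm2 lower, beside 10.3% of all genes with an adjusted p. Cdkn1a, the p21 inhibitor of cyclin-dependent kinases and a main p53 target, was the most abundant of the 40 members per length in both groups. It had 154, 118 and 173 CPM in circulating and 276, 205 and 278 CPM in muscle replicates 1 to 3. Every muscle library was above every circulating one. For Cdkn1a the log2 fold change was -0.77 ± 0.36 (95% interval -1.57 to 0.04, adjusted p = 0.274 in edgeR), and -0.01 with scaling on abundant genes. On the same per-length scale, the groups lay close, at 86.9 ± 15.6 in circulating and 96.6 ± 5.997 in muscle FAPs (SD, n = 3). The level of Cdkn1a exceeded that of 97.1% of all genes with a length in circulating and 97.2% in muscle FAPs. Cdkn1b, the p27 inhibitor of resting cells, had 42.3, 37.8 and 8.56 CPM in circulating and 55.1, 31.1 and 61.3 CPM in muscle replicates. The groups overlapped, with circulating 3 far below the other libraries. For Cdkn1b the log2 fold change was -0.73 ± 0.68 (adjusted p = 0.544 in edgeR), 0.041 with scaling on abundant genes and -0.41 when circulating 3 was left out.

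The INK4 inhibitors, which block Cdk4 and Cdk6, were near the limit of detection. Cdkn2a, the locus of p16 and p19ARF, had 0, 6 and 2 reads in circulating and 0 reads in all 3 muscle replicates. A count of 0 allows up to 3 reads, or 0.179, 0.152 and 0.147 CPM in muscle replicates 1, 2 and 3, for counting error only. Cdkn2b, p15, had 2, 0 and 6 reads in circulating and 0, 0 and 6 reads in muscle replicates, and neither gene was tested. Cdkn2c, p18, had 1.31, 1.597 and 1.76 CPM in circulating and 0.299, 1.07 and 0.196 CPM in muscle replicates. Its groups did not overlap in CPM, and its log2 fold change was 1.55 ± 0.73 (adjusted p = 0.272 in edgeR), or 2.56 without muscle replicate 2. Over the silent-gene background Cdkn2c was at 1.03 to 1.54 times in circulating and 0.338 to 1.40 times in muscle FAPs.

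Rb1, the retinoblastoma protein that holds E2F factors back, had 6.35, 12.9 and 27.1 CPM in circulating and 3.52, 3.55 and 5.23 CPM in muscle replicates 1 to 3. Every circulating library was above every muscle library. For Rb1 the log2 fold change was 1.91 ± 0.72 (95% interval 0.31 to 3.51), with an adjusted p of 0.210 in edgeR and 0.0734 in DESeq2, and it was 1.12 without circulating replicate 3. Over background Rb1 was at 2.23, 4.08 and 10.6 times in circulating and 2.22, 2.09 and 4.04 times in muscle FAPs. Rb1 also shares exon bases with Rcbtb2 and Lpar6.

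Members of the p53 pathway were split. Mdm2, the ubiquitin ligase that p53 induces and that degrades p53, had 20.4, 16.6 and 11.0 CPM in circulating and 69.8, 55.4 and 39.2 CPM in muscle replicates 1 to 3. All muscle libraries lay above all circulating ones, with a muscle mean 3.42 times the circulating mean. For Mdm2 the log2 fold change was -1.77 ± 0.58 (95% interval -3.06 to -0.49), with an adjusted p of 0.180 in edgeR and 0.00617 in DESeq2, and -1.04 with scaling on abundant genes. Trp53, the gene of p53 itself, had 3.87, 7.19 and 5.38 CPM in circulating and 30.8, 7.56 and 11.3 CPM in muscle replicates. The groups did not overlap, but circulating 2 and muscle 2 were close. For Trp53 the log2 fold change was -1.60 ± 0.74 (adjusted p = 0.266 in edgeR), and -0.85 without muscle replicate 1. Ccng1, a p53 target that encodes cyclin G1, had 59.0, 9.72 and 46.8 CPM in circulating and 35.2, 29.6 and 33.1 CPM in muscle replicates. The circulating libraries lay on both sides of the muscle range, and the log2 fold change was 0.24 ± 0.69 (adjusted p = 0.855 in edgeR).

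The other genes of these pathways were read from 5 lists, and none of their genes passed the edgeR threshold. At an unadjusted p under 0.05, 7 of 22 p53 targets, 6 of 13 quiescence genes, 2 of 54 G2 and M phase genes, 3 of 35 S phase genes and 3 of 27 regulators of the G1/S switch were lower, beside 9.64% of all genes. In the same order 2, 0, 5, 3 and 2 were higher, beside 9.71% of all genes. The DESeq2 calls of these lists stand beside 10.3% lower and 1.15% higher over all genes. Of 22 other p53 targets, 17 had negative log2 fold changes (median -0.83, or -0.09 with scaling on abundant genes), and DESeq2 called 4 lower (Sesn1, Sesn2, Btg2 and Plk2) and 0 higher. Plk2, a stress-induced Polo-like kinase, had 6.49, 10.4 and 8.35 CPM in circulating and 114, 58.4 and 91.4 CPM in muscle replicates 1 to 3. The groups were far apart, and the log2 fold change was -3.39 ± 0.58, with an adjusted p of 0.0622 in edgeR and 5.1e-08 in DESeq2. Btg2, an antiproliferative p53 target, had 87.6, 67.5 and 55.6 CPM in circulating and 290, 156 and 254 CPM in muscle replicates. The groups did not overlap, and the log2 fold change was -1.73 ± 0.42, with an adjusted p of 0.131 in edgeR and 0.00617 in DESeq2. Of 13 genes associated with quiescence, 9 had negative log2 fold changes (median -0.89, or -0.23 with scaling on abundant genes), and DESeq2 called 5 lower (Btg1, Txnip, Ccng2, Tob1 and Tob2). Ccng2, cyclin G2 of resting cells, had 9.76 ± 2.77 CPM in circulating cells and 57.1 ± 12.0 CPM in muscle FAPs (SD, n = 3). For Ccng2 the log2 fold change was -2.55 ± 0.59, with an adjusted p of 0.127 in edgeR and 3.66e-05 in DESeq2. Klf4, the most abundant gene of that list, had 488 ± 42.3 and 985 ± 220 CPM (SD, n = 3), with a log2 fold change of -1.01 ± 0.29 (adjusted p = 0.164 in edgeR).

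The medians of the other S phase and G2 and M phase genes lay near that of all genes under both scalings. Of 54 other G2 and M phase genes, 25 had negative log2 fold changes (median 0.15, or 0.91 with scaling on abundant genes), and DESeq2 called Cks2 and Pbk lower. In CPM 11 of the 54 were higher and 3 lower without overlap, beside 16.2% and 11.4% of all genes. Cks2, a subunit of cyclin-dependent kinases, had 0.146, 1.06 and 0.110 CPM in circulating and 21.6, 20.004 and 51.8 CPM in muscle replicates 1 to 3. The groups were far apart, and the log2 fold change was -6.21 ± 1.08, with an adjusted p of 0.0679 in edgeR and 3.15e-10 in DESeq2. Of 35 other S phase genes tested, 15 had negative log2 fold changes (median 0.28, or 1.004 with scaling on abundant genes), and DESeq2 called Prim1 and Dscc1 lower. Dscc1, of a clamp loader, had 73.4 CPM in muscle 2 against 1.71 to 10.3 CPM in the other libraries, with a log2 fold change of -3.13 ± 1.17 (adjusted p = 0.209 in edgeR), and -0.95 without muscle replicate 2. The most abundant S phase gene was Nasp, a histone chaperone, with 60.6, 38.5 and 13.8 CPM in circulating and 124, 106 and 92.6 CPM in muscle replicates, without overlap (log2 fold change -1.51 ± 0.58, adjusted p = 0.215 in edgeR). Jpt1, the most abundant of the G2 and M phase list, overlapped between the groups (0.12 ± 0.41, adjusted p = 0.876 in edgeR). Of 27 other regulators of the G1/S switch, 16 had negative log2 fold changes (median -0.35, or 0.43 with scaling on abundant genes), and DESeq2 called E2f5 and Cdkn1c lower and E2f4 and E2f7 higher. Myc, a growth-promoting transcription factor, had 172, 216 and 194 CPM in circulating and 381, 424 and 415 CPM in muscle replicates 1 to 3. The replicates of each group lay close together and the groups apart, with a log2 fold change of -1.07 ± 0.32 (adjusted p = 0.171 in edgeR), and -0.30 with scaling on abundant genes. E2f5, a repressive E2F, had 1.82, 3.59 and 2.42 CPM in circulating and 18.04, 34.1 and 8.12 CPM in muscle replicates. For E2f5 the log2 fold change was -2.95 ± 0.77, with an adjusted p of 0.147 in edgeR.

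The spread within a group was wide for many members. The highest of the 3 libraries was at least 5 times the lowest for 8 of 40 members in circulating and 11 of 40 in muscle FAPs, 20% and 27.5%, beside 19.5% and 19.0% of all genes. The high libraries differed from gene to gene. In circulating FAPs the highest library was replicate 1 for 11 members, replicate 2 for 11 and replicate 3 for 18, and in muscle FAPs it was replicate 1 for 13, replicate 2 for 12 and replicate 3 for 15.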

How the data were processed

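RNA of 3 circulating and 3 muscle FAP libraries was sequenced. The authors deposited counts of reads per gene, made with STAR and featureCounts on GRCm39 after Trim Galore, per the submitters' processing notes; versions, annotation and strand setting are not given in the sources used here. Library totals ranged from 5522193 to 23424039 counts, which sets the precision of low genes. Counts were tested with edgeR 4.0.16 in R 4.3.3 (TMM scaling, filterByExpr, glmQLFit and glmQLFTest on group, Benjamini-Hochberg adjustment over all 20248 genes tested, threshold 0.05); the procedure was checked on simulated data. DESeq2, scaling on genes of at least 20 CPM, RLE factors, no filter, removal of 18S, a replicate block and leaving out each library were alternatives. CPM are counts over the TMM-scaled library total. Levels between genes were compared per kilobase of GENCODE M21 exon, over the library total without 18S, and over the median of 389 silent receptor genes. Promoter windows came from RefSeq and were searched on both strands. The 40 members and the gene lists were chosen with earlier results of these data known. Genes named with full values were, in each role, those of highest level per length and largest log2 fold change, and in each further list the most abundant gene and the one of smallest p; other members were added so that each is accounted for, some after their values were seen.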

Additional observations from a re-analysis of the deposited data

How the results depend on the processing

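Depth, replicate spread and scaling limit these results. Genes past the edgeR threshold numbered 22, and 1542 in DESeq2, 6 with scaling on abundant genes, 43 with RLE factors, 160 with no filter and 26 without 18S. Leaving out single libraries gave 0 to 65 genes: 65 when circulating 1 was left out, 0 when muscle 3 was, and 1 for each other library. Members past the threshold numbered 0, but 5 in DESeq2 and 1, Cdk2, with no filter; leaving out single libraries gave 0 to 0. The members' median, -0.54, moved to 0.27 when abundant genes set the scale and to -0.78 with no filter, and -0.91 to -0.21 leaving out single libraries. Members without overlap numbered 10 (7 lower, 3 higher), 11 with scaling on abundant genes (3 lower, 8 higher), and 13 to 17 with fewer libraries to separate. The causes were not tested. With a replicate block 1 gene and 0 members passed. Deviations of same-numbered libraries correlated at 0.01, 0.04 and 0.01, and not every library correlated best with its own number. Such weak correlations do not show a pairing by number and cannot exclude one. The block moved the median of the G1 genes to -0.64 and of the S to M phase genes to -0.29. Signs turned with the block for Mcm7 (-0.83), Tyms (0.17), Top2a (0.030), Cdk4 (-0.64) and Ccng1 (-0.083). With scaling on abundant genes they turned for Mcm5 (0.63), Tyms (0.75), Top2a (0.71), Ccna2 (0.58), Ccne1 (0.27) and Cdkn1b (0.041). Cdk4 was -0.11 in DESeq2, -0.041 with RLE factors and -0.16 with no filter, and Jpt1 was -0.061 in DESeq2 and -0.11 with no filter. Leaving out single libraries gave log2 fold changes of both signs for Mcm5 (-0.41 to 0.12, positive without muscle 3), Mcm7 (-1.99 to 1.03, negative without circulating 1), Tyms (-0.44 to 0.67, positive without circulating 1 or muscle 1), Top2a (-0.37 to 0.39, muscle 3), Ccna2 (-0.57 to 0.14, muscle 3), Aurkb (-1.91 to 0.14, muscle 2), Birc5 (-1.95 to 2.20, circulating 3), Ccnd1 (-1.84 to 1.02, muscle 2), Ccne1 (-1.03 to 0.20, muscle 3), Cdk4 (-1.57 to 0.42), Ccng1 (-0.27 to 0.61, circulating 1 or 3) and Jpt1 (-0.21 to 0.26). Without 18S all 37 members tested kept their direction and side of the threshold.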

Other observations

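Ratios of members within a library, per length, were looked at after the values were seen and are given as values. The ratio of Cdk4 to Cdk2 was 6.93, 2.87 and 36.4 in circulating and 1.43, 2.15 and 0.964 in muscle replicates 1 to 3, higher in each circulating library. The ratio of Cdkn1a to Cdkn1b was 4.68, 4.001 and 25.9 in circulating and 6.41, 8.45 and 5.82 in muscle replicates, which overlapped. The ratio of Ccnd2 to Ccnd1 was 4.98, 16.9 and 9.04 in circulating and 35.1, 2.96 and 28.2 in muscle replicates, lowest where muscle 2 had its high Ccnd1 level.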
